A study of Homo sapiens with 18 samples.

Results

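The passage from human embryonic stem cells (hESC) to brain organoids at Day 5 was followed across genes in the wild-type (LIS1+/+) form of WIBR3, an established hESC line. The 3 Day 5 libraries and the 3 hESC libraries were taken by their titles, 6 of the 18 libraries of the series. The other 12 were 3 Day 12 libraries of the same genotype and 9 LIS1+/- libraries, 3 each from hESC, Day 5 and Day 12 organoids. LIS1, gene symbol PAFAH1B1, encodes a regulator of the motor protein dynein, and the nature of its altered allele and the number of clones are not given in the sources used here. All values come from 1 line, the medium and any inhibitors used between hESC and Day 5 are not stated, and whether the repeats of a group were grown apart is not stated. The p-values then cover the variation among the libraries sequenced, which may be technical.

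In the embryo, neural induction turns epiblast, the layer that hESC resemble, into the neural plate. Epiblast depends on POU5F1, SOX2 and NANOG and on Nodal and FGF signals, and it takes the neural path where Nodal and BMP signals are blocked. The neural plate then switches from E-cadherin to N-cadherin, folds into a tube of apical-basal progenitors, and is divided along its axis by WNT, FGF, retinoic acid and hedgehog signals. The series' title calls these organoids cortical, that is, meant to form tissue of the dorsal forebrain.

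Libraries were made by bulk MARS-seq, a method that reads transcripts at their 3' ends. Counts over genes per library ran from 1602532 to 2386061 in hESC and from 4216835 to 4501489 at Day 5, and correlations across genes between libraries of a group lay between 0.961 and 0.979. Reads that did not map to a single place made up between 46.2% and 58.3% of a file in hESC and between 29.9% and 31.9% at Day 5. Genes with near-identical copies elsewhere are therefore uncertain. Some of them are marked where they appear, and a gene without a mark may have copies too. The file names carry 1 pool number for hESC and another for Day 5, and stage and pool cannot be told apart. Each library was set against the mean of the others of its group for its trend with GC. Genes rich in GC were read less in hESC replicate 3 than in those others (slope -0.0194 log2 per percent GC). The slopes were 0.0146 and 0.0048 in the other libraries of hESC and between -0.0044 and 0.0082 at Day 5. Across 11656 genes the fold change from hESC to Day 5 rose with GC by 0.0178 log2 per percent, and 5667 genes were called with that trend removed.

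Expression was rebuilt on a broad scale by Day 5. Of 12215 genes tested with edgeR's quasi-likelihood test, 5453 (44.6%) were called, that is, had an adjusted p under 0.05. Higher levels at Day 5 were called for 2801 genes (22.9%) and lower levels for 2652 (21.7%). Of the called genes 3491 had a fitted change of at least 2-fold and 1962 a smaller one. A stricter test, against a change of 2-fold, was passed by 1722 genes (14.1%), 920 of them higher and 802 lower. A fitted rise of at least 32-fold was found in 166 called genes and a fall of that size in 109. The 3 libraries of one stage did not overlap with the 3 of the other for 6890 genes (56.4%), called or not. Genes that fell held 41.0% of all counts in hESC, and genes that rose held 24.2% of all counts at Day 5. The median log2 fold change (Day 5 minus hESC, the sign used throughout) over all tested genes was 0.06. Levels are given as CPM, that is, counts scaled to a common library size, and values are in the order of replicates 1, 2 and 3. For every gene named below as rising or falling, the adjusted p was under 0.05 and the libraries of the stages did not overlap. RNA of bulk samples cannot tell fewer cells of a type from less RNA per cell.

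The members of 33 gene lists are described by pathway and role. The lists hold 673 different genes, of which 578 had enough counts to be tested. Of these 193 rose, 187 fell and 198 were not called, and 25 of the 95 members not tested had 0 counts in all 6 libraries. The counts of every list stand beside 22.9% of all tested genes that rose and 21.7% that fell.

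**Figure D1:**
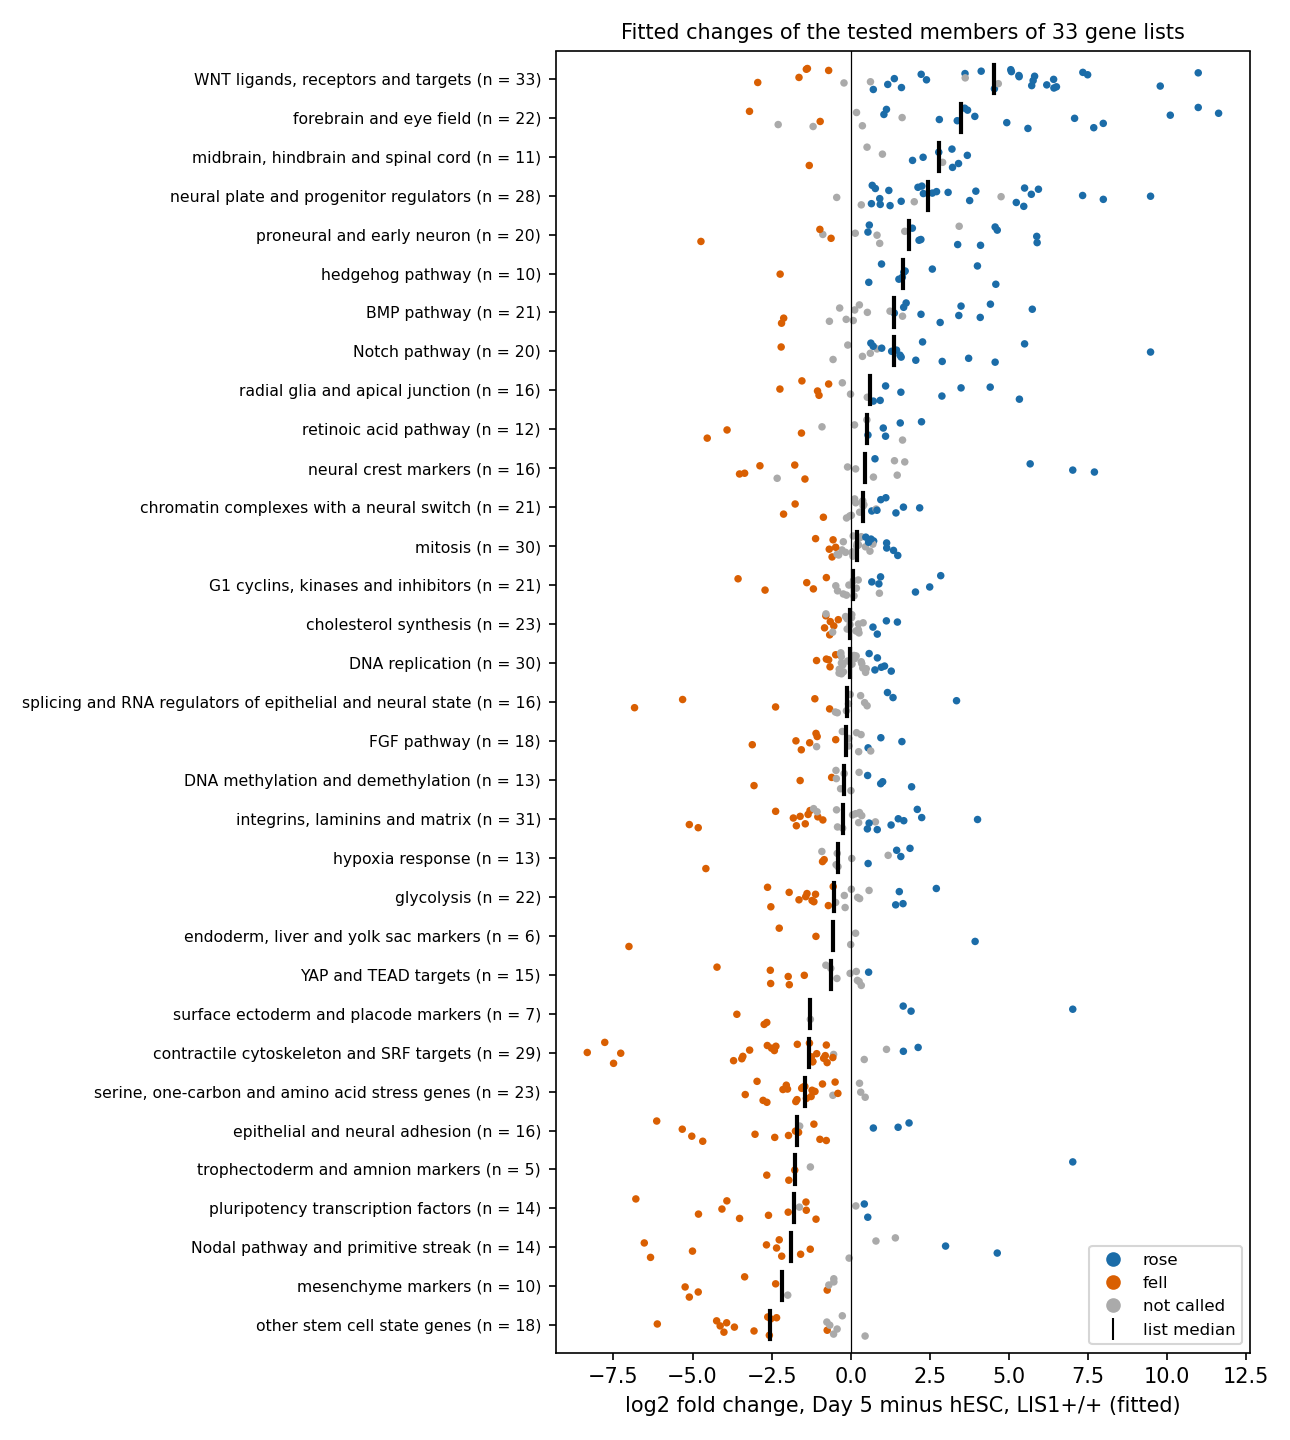
Fitted log2 fold change (horizontal axis, Day 5 minus hESC, LIS1+/+) of every tested member of the 33 lists, 1 point per gene, with a vertical bar at each list's median. Blue points rose, orange points fell and grey points were not called; medians run from -2.55 for the other stem cell state genes to 4.54 for the WNT list, while the lists of DNA replication and cholesterol synthesis lie around 0.

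The transcription factors of the stem cell state fell, with SOX2 and SALL4 on the other side. Of 14 tested members 10 fell, 2 rose and 2 were not called, with a median log2 fold change of -1.80. POU5F1, the homeodomain factor that holds cells in the pluripotent state, was measured at 562, 529 and 459 CPM in hESC and 32.6, 32.7 and 37.4 CPM at Day 5. Its libraries lay far apart by stage and close together within one, and the fall was 15.1-fold (log2 -3.92 ± 0.16, SE, n = 3 against 3, adjusted p = 5.89e-16), with the reserve that POU5F1 has near-identical copies. ZSCAN10, a zinc finger partner of POU5F1 and SOX2, went from 649, 605 and 477 to 56.2, 46 and 49.4 CPM, and PRDM14, a repressor that guards pluripotency, from 20, 28.7 and 23.6 to 1.45, 1.80 and 0.902 CPM. NANOG, which gave few counts even in hESC, was measured at 4.29, 10 and 9.31 CPM there and stood at 0, 0 and 0.677 CPM at Day 5 (3 counts in all), a pooled ratio of 32.5-fold with a 95% counting interval of 10.3 to 164. NANOG too has near-identical copies.

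SOX2, which stem cells and neural progenitors share, was measured at 464, 466 and 592 CPM in hESC and 682, 700.2 and 668 CPM at Day 5. All 3 Day 5 libraries lay above the hESC libraries, by 0.43 ± 0.17 on the log2 scale (adjusted p = 0.0425). This small rise lost its call with DESeq2 size factors, with the DESeq2 test and without any 1 of 5 of the 6 libraries, the exception being hESC replicate 3 (adjusted p up to 0.139). SALL4, a zinc finger factor of the same network, rose by 0.54 ± 0.21 and lost its call under DESeq2 and without hESC replicate 1 or 3 or Day 5 replicate 1 or 2 (adjusted p up to 0.136).

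Other genes of the stem cell state fell in 12 of 18 tested members and none rose (median -2.55). The membrane proteins CD9 and PODXL, the latter carrying stem cell surface antigens, fell 15.2-fold and 5.77-fold. DNMT3B, the de novo DNA methyltransferase of epiblast, went from 1655, 1569.7 and 1587 CPM to 203, 199 and 177 CPM. L1TD1, an RNA-binding protein of hESC, went from 515, 546 and 655 to 24.1, 27.9 and 38.6 CPM. The long noncoding RNA LINC00678 fell from 86.2, 68.8 and 77.6 to 0.724, 0.901 and 1.58 CPM. In contrast, LIN28A, which blocks maturation of let-7 microRNAs, was not called, at 900.0, 886 and 775 CPM against 673, 648 and 580.5 CPM (adjusted p = 0.0997), although it was called as lower when only the 6 libraries were fitted. ALPL, the alkaline phosphatase used to stain stem cell colonies, was not called either and stood at 184, 213 and 151 CPM against 242, 251 and 259 CPM, and it was called as higher without the filter on low counts, with only the 6 libraries fitted and without hESC replicate 2. ZFP42, another classical marker, had 0 counts in all 6 libraries.

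**Figure D2:**
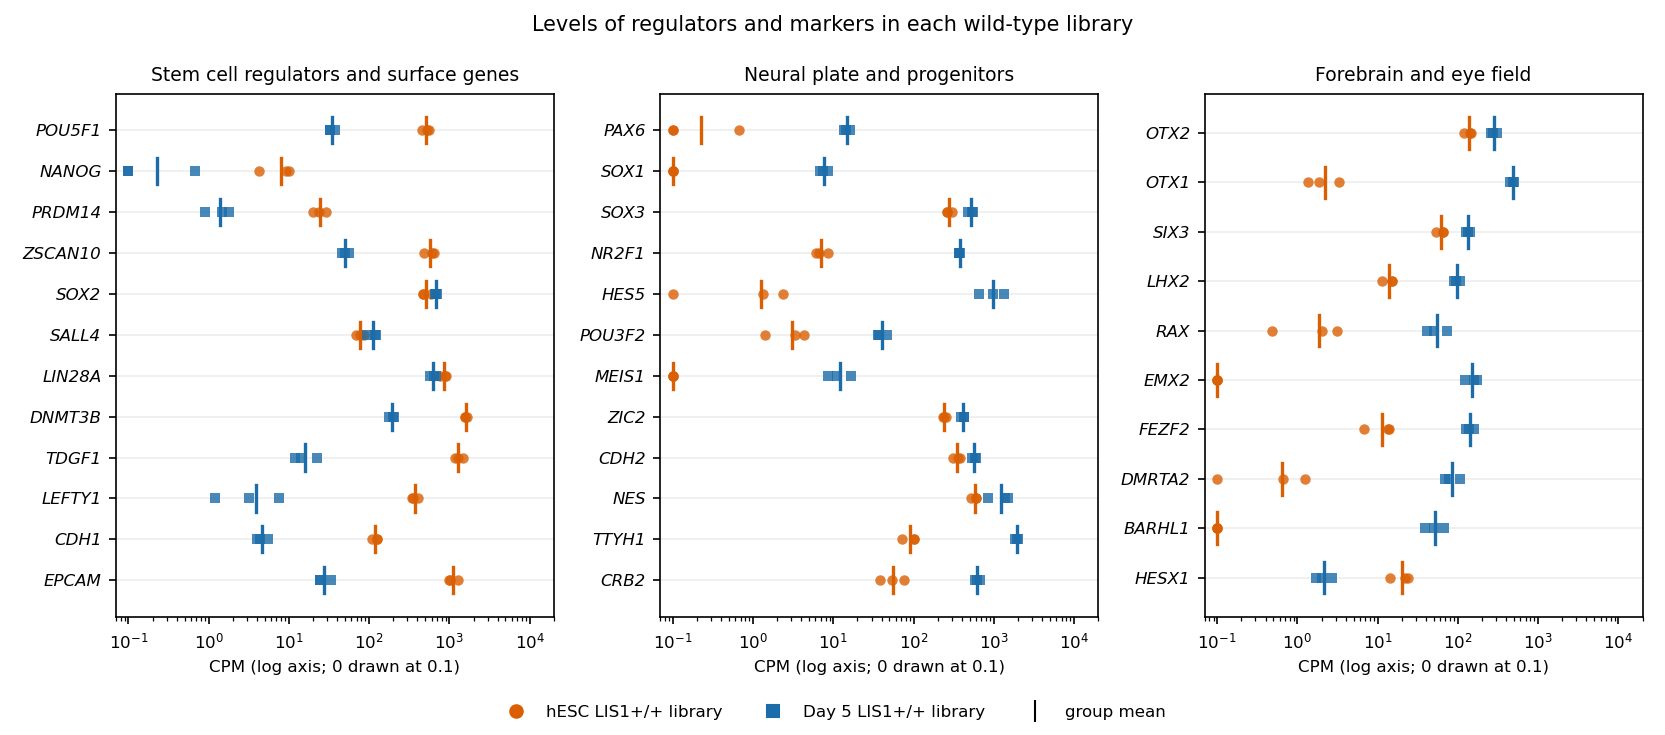
Level of each gene in CPM (horizontal log axis, 0 drawn at 0.1) in the 3 hESC libraries (orange circles) and the 3 Day 5 libraries (blue squares) of LIS1+/+, with a bar at each group mean. Stem cell genes such as POU5F1 and CDH1 lie lower at Day 5, SOX2 and LIN28A lie close together at both stages, and the regulators of neural plate and forebrain lie higher at Day 5 except HESX1.

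Genes of Nodal signalling, which maintains hESC and drives mesendoderm, fell at the level of ligand, co-receptor and feedback inhibitors. Of 14 tested members 9 fell, 2 rose and 3 were not called, with a median of -1.88. NODAL itself went from 40, 31.4 and 27.9 to 10.9, 11.5 and 10.8 CPM and its co-receptor TDGF1, which has near-identical copies, from 1268, 1159 and 1461 to 11.8, 14 and 22.3 CPM. The secreted inhibitors LEFTY1 and LEFTY2, direct Nodal targets, fell 92.2-fold and 32.1-fold. FOXH1, the partner of SMAD2 and SMAD3 on Nodal targets, fell 5.08-fold. The members that rose were primitive streak genes at low level. MIXL1 was measured at 1.43, 3.34 and 4.34 CPM in hESC and 13.7, 14.6 and 42.8 CPM at Day 5, with Day 5 replicate 3 well above the other two. EOMES had 1 count in hESC and reached 2.41, 5.63 and 9.70 CPM, again highest in replicate 3. The endoderm gene SOX17 was not tested and had 0 counts in each hESC library and 12, 1 and 24 counts at Day 5, and the streak gene T had 0, 0 and 3 against 6, 1 and 10 counts.

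BMP pathway genes rose more often than they fell. Of 21 tested members 10 rose, 2 fell and 9 were not called (median 1.38), beside 22.9% and 21.7% of all tested genes. Ligand BMP4 went from 53.8, 50.8 and 44.7 to 5.31, 13.3 and 15.6 CPM and the pseudoreceptor BAMBI, a feedback target, from 71.4, 78.2 and 66.4 to 12.3, 11.9 and 23 CPM, while ligand BMP7 rose 2.60-fold. The extracellular inhibitors NOG, which traps BMPs, and FST, which traps activin, rose from 1.43, 0 and 2.48 to 31.6, 19.8 and 37.4 CPM and from 166, 164 and 219.7 to 654, 525 and 670.4 CPM. Among the helix-loop-helix targets, ID3 rose from 363, 325 and 339.5 to 1655, 1479 and 1667 CPM and ID2 from 19, 13.4 and 16.1 to 180.4, 182 and 189.9 CPM. ID1, the member most often used as a BMP readout, was not called, at 262, 210.4 and 220.4 CPM against 218, 212 and 198 CPM. The homeobox gene MSX1, a dorsal midline gene, rose from 1.90, 0.668 and 1.24 to 69.5, 75.9 and 76.9 CPM (53.5-fold, adjusted p = 8.91e-06).

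The neural plate list rose nearly as a whole: 24 of 28 tested members rose, none fell and 4 were not called, with a median of 2.44 (2.27 where genes without a count in hESC enter at their lower bound). PAX6, the paired-box factor of human neuroectoderm, had 1 count over the hESC libraries and reached 13.5, 16 and 14.4 CPM, a pooled ratio of 76.4-fold with a counting interval of 13.6 to 3034. SOX1, the earliest factor restricted to neural plate, had no count in hESC and reached 6.75, 8.56 and 7.44 CPM, at least 13.2-fold higher. Factors with a level in hESC rose too, such as the SOX2 relative SOX3 from 304, 263 and 261 to 532, 476 and 557 CPM and ZIC2, a zinc finger gene of the neural folds, from 231, 239.8 and 258 to 394, 430.4 and 426 CPM. The POU factor POU3F2 went from 1.43, 3.34 and 4.34 to 36.2, 37.4 and 46.5 CPM, its relative POU3F1 from 15.7, 6.01 and 9.93 to 91.2, 110.4 and 75.5 CPM, and ZNF521, a zinc finger driver of neural differentiation, from 27.6, 26.1 and 19.9 to 163, 137 and 185 CPM. MEIS1, a homeobox cofactor without a count in hESC, reached 16.4, 8.56 and 11.1 CPM. DLK1, a secreted and membrane-bound Notch-like protein, went from 66.7, 64.8 and 66.4 to 2843, 3769.6 and 2178 CPM, lowest in Day 5 replicate 3. ZIC1 was not called, with levels of 0, 0 and 1.24 CPM in hESC and 2.65, 0.901 and 1.58 CPM at Day 5.

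Forebrain and eye field regulators rose in 15 of 22 tested members, 2 fell and 5 were not called (median 3.49). OTX2, present in epiblast and forebrain alike, went from 119.5, 143 and 146 to 274, 261 and 311 CPM, a rise of 2.07-fold, whereas its relative OTX1 went from 3.33, 1.34 and 1.86 to 489, 451 and 502 CPM, 206-fold. Factors of the eye field and telencephalon that were already measured in hESC rose moderately, SIX3 from 52.9, 65.5 and 64.6 to 133, 141 and 126 CPM and LHX2 from 15.2, 11.4 and 14.9 to 95.5, 107 and 90.4 CPM. RAX, the eye field homeobox gene, rose from 0.476, 2.00 and 3.10 to 50.2, 73 and 40.8 CPM. Telencephalic genes followed the same direction: FEZF2 went from 13.8, 13.4 and 6.83 to 138, 125 and 157 CPM and DMRTA2 from 0, 0.668 and 1.24 to 68.5, 77.7 and 107 CPM. HESX1, a homeobox gene of the anterior neural plate and pituitary, fell from 23.8, 22 and 14.3 to 1.69, 2.70 and 2.03 CPM, and FEZF1 fell from 194, 188 and 247 to 83, 135 and 104 CPM, a call that was lost without hESC replicate 3 or Day 5 replicate 1 (adjusted p up to 0.0582).

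Genes of more posterior brain were measured beside the forebrain genes. Of 11 tested members of the midbrain, hindbrain and spinal cord list 7 rose and 1 fell (median 2.78, or 2.29 at the bound). The shares of all tested genes were 22.9% and 21.7%. PAX2 and GBX2, which act at the boundary of midbrain and hindbrain, went from 1.43, 6.01 and 3.72 to 52.3, 41 and 44.4 CPM and from 3.81, 6.01 and 3.72 to 49.4, 39.2 and 35.2 CPM. IRX3, an Iroquois gene of posterior forebrain and beyond, went from 15.7, 8.68 and 13.7 to 92.1, 87.9 and 87.3 CPM, while IRX2 fell from 709, 588 and 497 to 221, 248 and 254 CPM. All 9 HOX genes on the list, which mark hindbrain and spinal cord, were too low to be tested, and 6 of them had 0 counts in all 6 libraries.

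Genes of progenitor structure changed in both directions. In the list of radial glia and apical junction genes, 8 of 16 tested members rose and 5 fell (median 0.62). The shares of all tested genes were 22.9% and 21.7%. TTYH1, a membrane protein of neural progenitors, went from 101, 101 and 71.4 to 2009, 1865 and 1945 CPM. CRB2, an apical polarity protein of neuroepithelium, went from 53.3, 38.1 and 75.1 to 665, 624 and 584 CPM. The intermediate filament gene NES rose from 602, 601 and 528 to 1496, 1381 and 843 CPM, with Day 5 replicate 3 lowest, whereas VIM, its partner filament, fell from 5047, 4964 and 4857 to 2550.0, 2065 and 2809.6 CPM. PROM1, which encodes the apical membrane protein CD133, fell from 56.2, 73.5 and 62.1 to 15.4, 9.69 and 15.3 CPM. FABP7, a lipid carrier of radial glia, rose from 1.43, 2.67 and 1.24 to 12.5, 16.7 and 10.1 CPM.

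More genes of early neurons rose than fell. In this list 11 of 20 tested members rose and 3 fell (median 1.83, or 1.31 at the bound). Of all tested genes 22.9% rose and 21.7% fell. The proneural factor NEUROG2 was not called, at 3.14, 1.35 and 1.58 CPM at Day 5. DCX, a microtubule protein of migrating neurons, rose from 3.33, 2.00 and 3.72 to 10.9, 16.2 and 14.4 CPM. INSM1, a zinc finger factor of newborn neurons and endocrine cells, fell from 53.8, 66.8 and 67.7 to 2.17, 2.70 and 2.03 CPM and was back at a mean of 80.6 ± 56.7 CPM at Day 12. TUBB3, a tubulin often used as a neuronal marker, was higher in hESC than at Day 5, at 509, 504 and 387 against 229.9, 249 and 233 CPM, a fitted change of -0.98 ± 0.18; tubulin genes share sequence with close relatives.

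Cadherins changed in opposite directions. CDH1, E-cadherin of epithelia, went from 108, 126 and 124 to 4.34, 4.06 and 5.41 CPM, 25.6-fold lower (adjusted p = 8.01e-11), and P-cadherin CDH3 from 44.3, 58.1 and 44.7 to 0.965, 1.58 and 1.80 CPM. N-cadherin CDH2, measured in hESC already, rose from 307, 359 and 383 to 602, 532 and 589 CPM, 1.64-fold. The neural adhesion molecule NCAM1 rose from 35.7, 32.1 and 39.7 to 103, 102 and 99.4 CPM and cadherin CDH6 from 6.67, 13.4 and 12.4 to 35.7, 33.1 and 45.3 CPM. EPCAM, an epithelial adhesion protein, went from 994, 1029 and 1277 to 33.8, 24.1 and 24.4 CPM and the tight junction protein CLDN7 from 46.2, 47.4 and 29.2 to 0.241, 1.13 and 0.226 CPM. Of 16 tested members 12 fell and 3 rose (median -1.70).

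The regulators of epithelial splicing fell with them. ESRP2 went from 77.1, 64.1 and 59 to 1.21, 0.225 and 0.226 CPM and ESRP1 from 66.2, 70.8 and 96.8 to 0, 1.35 and 4.28 CPM; both proteins impose the epithelial forms of transcripts such as those of FGFR2. PTBP1, which represses neural exons, fell 1.59-fold, while NOVA1 and NOVA2, neural splicing factors, rose 2.24-fold and 10.2-fold. The neural PTBP1 relative PTBP2 was not called (0.31 ± 0.23). The whole list of 16 tested members held 3 that rose and 5 that fell, at a median of -0.10. These shares lay near the 22.9% and 21.7% of all tested genes.

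WNT genes had the highest list median, 4.54 (3.74 at the bound), with 24 of 33 tested members higher and 5 lower. Several ligands had hardly a count in hESC. WNT3A had 3 counts there and reached 36.2, 50.3 and 73.1 CPM, WNT1 had 1 count and reached 13.5, 18.3 and 21 CPM, and WNT2B went from 5.71, 1.34 and 2.48 to 123, 87.7 and 140.3 CPM. These 3 ligands belong to the roof of the neural tube and its derivatives, and Day 5 replicate 3 held the highest value of each. WNT5B, a ligand mostly of the branch that does not use beta-catenin, went from 2.38, 3.34 and 4.34 to 116, 121 and 95.8 CPM. RSPO1, which enhances WNT signals, went from 1.90, 2.67 and 1.24 to 38.4, 35.4 and 63.8 CPM.

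WNT receptors of the Frizzled family changed in both directions. FZD5 went from 91.9, 78.2 and 121 to 13.5, 15.3 and 9.02 CPM, FZD7 from 632, 649 and 659 to 263, 224 and 247 CPM and FZD8 from 84.3, 82.2 and 86.3 to 26.1, 31.5 and 23.7 CPM. On the other side, FZD1 went from 1.90, 1.34 and 2.48 to 35, 27.7 and 40.1 CPM, FZD2 from 44.3, 41.4 and 46.6 to 134, 151 and 119 CPM and FZD3 from 2.86, 4.01 and 1.86 to 15.2, 12.2 and 13.8 CPM, and FZD10, with 2 counts in hESC, reached 38.1, 30.4 and 42.2 CPM. Targets of beta-catenin rose: SP5, a zinc finger feedback repressor, went from 0.476, 0.668 and 5.59 to 169.8, 171 and 252 CPM and the inhibitor NKD1 from 1 count to 10.4, 12.2 and 16.2 CPM. AXIN2, the target most used as a readout, rose by 0.71 ± 0.21 (adjusted p = 0.00697) and lost its call without Day 5 replicate 3 (adjusted p = 0.0771). TCF7L1, the repressor of WNT targets in hESC, fell 2.58-fold, and LEF1, the activating relative, rose 52.8-fold.

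**Figure D3:**
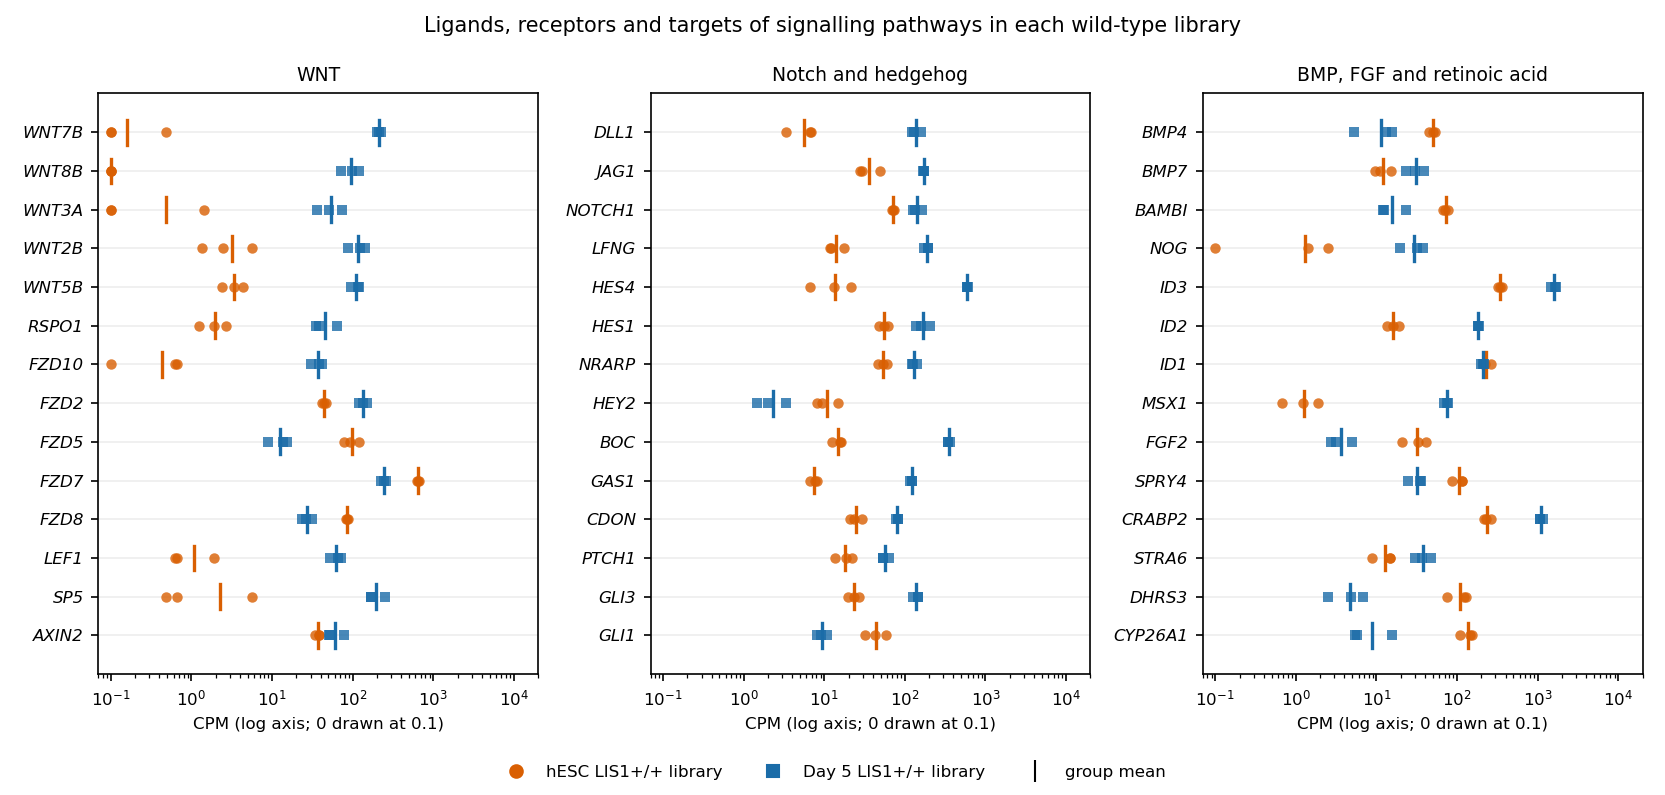
Level in CPM (horizontal log axis, 0 drawn at 0.1) of ligands, receptors, inhibitors and targets in the 3 hESC libraries (orange circles) and 3 Day 5 libraries (blue squares) of LIS1+/+, with a bar at each group mean. WNT ligands, LEF1 and SP5 lie higher at Day 5 and FZD5, FZD7 and FZD8 lower; HEY2, GLI1, BMP4, BAMBI, FGF2, SPRY4, DHRS3 and CYP26A1 lie lower at Day 5, and ID1 overlaps.

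Notch pathway genes rose at the level of ligands, modifiers and targets, in 14 of 20 tested members with 1 that fell (median 1.37). The ligand DLL1 was measured at 6.67, 3.34 and 6.83 CPM in hESC and 123, 130.0 and 157 CPM at Day 5, and the ligand JAG1 at 29, 28.1 and 49.7 and 166, 174 and 175 CPM. LFNG, the sugar transferase that tunes receptor choice between them, went from 17.6, 12 and 11.8 to 194, 191 and 175 CPM. Receptor NOTCH1 rose 1.97-fold, from 69.5, 72.8 and 71.4 to 125, 165 and 132 CPM. The feedback inhibitor NRARP rose from 53.8, 59.4 and 46.6 to 143, 128 and 122 CPM and the repressor HES1 from 62.4, 55.4 and 47.8 to 160.4, 137 and 205 CPM. HES4 went from 6.67, 21.4 and 13 to 597, 587 and 609.8 CPM. HEY2 was the member that fell, from 8.09, 9.35 and 14.9 to 1.45, 2.03 and 3.38 CPM, while HEY1 rose from 5.24, 6.01 and 6.21 to 29.4, 18.5 and 24.8 CPM. RBPJ, the DNA-binding partner of the receptors, was not called.

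Of the hedgehog pathway, 9 of 10 tested members rose and GLI1 fell (median 1.66). Co-receptors rose: BOC went from 12.4, 16 and 15.5 to 346, 340.1 and 363 CPM, GAS1 from 7.62, 6.68 and 8.07 to 124, 117 and 122 CPM and CDON from 21, 29.4 and 23.6 to 78.6, 81.6 and 82.1 CPM. GLI3, whose processed form is the main repressor of the pathway, rose from 19.5, 23.4 and 26.7 to 146, 144 and 125 CPM. Receptor and target PTCH1 rose from 22.4, 18.7 and 13.7 to 53.3, 54.3 and 63.8 CPM, but GLI1, a target that serves as an activity readout, fell from 42.4, 58.8 and 31.7 to 9.17, 8.11 and 10.8 CPM. The ligand SHH was not tested, with 2, 3 and 0 counts in hESC and none at Day 5.

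Retinoic acid genes changed in both directions: of 12 tested members 5 rose and 3 fell (median 0.53), beside 22.9% and 21.7% of all tested genes. The carrier CRABP2 rose from 217, 262 and 226 to 1176, 1069 and 1080.0 CPM, the retinol importer STRA6 from 14.8, 14.7 and 8.69 to 30.2, 36.7 and 46.9 CPM and the receptor RXRA from 71.4, 83.5 and 78.8 to 176, 159 and 167 CPM. CYP26A1, which degrades retinoic acid and is induced by it, fell from 109, 145 and 153 to 5.79, 5.41 and 15.6 CPM. DHRS3, which returns retinal to retinol, fell from 131, 122 and 75.7 to 4.82, 6.76 and 2.48 CPM. In the FGF pathway 3 of 18 tested members rose and 7 fell (median -0.16), beside the same shares of all tested genes. FGF2, the growth factor of hESC culture, went from 21, 32.7 and 41.6 to 3.14, 2.70 and 4.96 CPM and the feedback inhibitor SPRY4 from 86.2, 115 and 114 to 34.5, 35.6 and 24.4 CPM, while ETV5, a target, rose from 8.09, 9.35 and 6.21 to 33, 22.1 and 17.8 CPM.

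The contractile cytoskeleton was high in hESC and low at Day 5. Of 29 tested members of the list of contractile genes and targets of SRF, the serum response factor that reads the state of actin, 24 fell, 2 rose and 3 were not called (median -1.30). The list sum went from between 25855 and 28624 CPM per hESC library to between 11546 and 11629 CPM at Day 5. TAGLN, an actin-bundling protein of smooth muscle, was measured at 2982, 3049 and 1790.1 CPM in hESC, with replicate 3 lowest, and at 13.3, 15.1 and 7.22 CPM at Day 5. The muscle actins ACTA1 and ACTG2 went from 159, 157 and 127 to 0.965, 0.901 and 0.451 CPM and from 198, 249 and 180.0 to 0.724, 0 and 3.16 CPM, and the myosin light chain MYL9 from 517, 648 and 405 to 39.6, 42.4 and 38.3 CPM; actin genes share sequence with each other and with pseudogenes. Focal adhesion protein VCL and tropomyosin TPM1 fell 5.36-fold and 6.22-fold. The actins of all cells fell too, ACTG1 1.71-fold and ACTB 1.81-fold, and so did SRF itself, 1.75-fold, from 258, 240.5 and 221 to 140.4, 135 and 137 CPM. MYLK, the myosin light chain kinase, rose from 6.19, 8.02 and 12.4 to 41, 37.2 and 37.2 CPM. The filamin gene FLNA was not called and varied in hESC, at 2626, 2242 and 1457 CPM against 1206, 1562 and 1581 CPM, and it was called as lower without the filter on low counts, with only the 6 libraries fitted and with the GC trend removed.

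SRF binds the CArG box, CC and GG around a core of A and T letters that is read on both strands. The promoter windows of RefSeq (GRCh38.p14, from 250 bases before to 50 after the first listed start of a gene) covered 27 of the 30 list members and held a CArG box in 12 of them (44.4%), against 454 of 35116 windows over all genes (1.29%). Of the 27 members 12 have more than 1 listed start. The list was written from genes known as SRF targets, so this share describes it and is no independent sign. Of the 12 members with a match 8 fell (ACTA1, ACTG2, ACTG1, CNN2, MYL7, TPM4, SRF and FHL2), 2 rose (MYLK and EGR1), FLNA was not called and ACTC1 was not tested. The stretches around the match are shown for 4 members that fell and 2 that rose, with the CArG box in capitals and the bases beside it in lower case, because genes with the same box went both ways.
ACTA1 (chr1:229434162-229434211, minus strand): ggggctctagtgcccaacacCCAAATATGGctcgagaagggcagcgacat
ACTG2 (chr2:73892878-73892964, plus strand): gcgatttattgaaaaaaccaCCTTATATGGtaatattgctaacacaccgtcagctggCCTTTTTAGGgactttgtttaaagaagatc
MYL7 (chr7:44141364-44141413, minus strand): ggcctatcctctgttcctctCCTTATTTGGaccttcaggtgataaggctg
CNN2 (chr19:1026499-1026548, plus strand): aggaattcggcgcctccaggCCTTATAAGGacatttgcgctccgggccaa
MYLK (chr3:123620613-123620662, minus strand): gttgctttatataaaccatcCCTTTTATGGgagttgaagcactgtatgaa
EGR1 (chr5:138465354-138465425, plus strand): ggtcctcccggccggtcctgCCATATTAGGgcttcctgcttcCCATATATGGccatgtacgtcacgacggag

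ACTG2, SRF and EGR1 each held the box 2 times in the window. ACTG2 was among the members that fell furthest (154-fold), MYL7, a myosin light chain of heart muscle, had no count at Day 5 (at least 65.8-fold lower), and CNN2, a calponin, fell 2.47-fold. EGR1, an immediate early gene, went from 5.24, 0.668 and 3.72 to 16.2, 10.1 and 6.31 CPM, and its call was lost without hESC replicate 2 or Day 5 replicate 1 (adjusted p up to 0.0595). A match is a description of letters and does not show binding.

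Targets of the coactivator YAP, which reads cell tension and density and acts through TEAD factors, fell in part. Of 15 tested members 6 fell and 1 rose (median -0.63), beside 21.7% and 22.9% of all tested genes. CTGF and CYR61, matrix-associated proteins used as YAP readouts, went from 246, 321 and 372 to 52.3, 40.1 and 69.7 CPM and from 201, 210.4 and 248 to 34, 28.2 and 51 CPM. TEAD4 fell 3.93-fold and the YAP relative WWTR1 3.84-fold. YAP1 itself was not called, at 24.8, 9.35 and 18.6 CPM against 23.9, 17.4 and 19.6 CPM. The TEAD motif GGAATG, read on both strands, was in the window of 4 of the 13 members with a window (30.8%, against 14% of all windows). The list was written around YAP and TEAD, so this share describes it and is no independent sign. Of the members with a match CTGF and ANKRD1 fell, and LATS2 and YAP1 were not called. The motif occurred 3 times in the window of CTGF, 2 of them 3 bases apart, as shown with the motif in capitals.
CTGF (chr6:131951442-131951561, minus strand): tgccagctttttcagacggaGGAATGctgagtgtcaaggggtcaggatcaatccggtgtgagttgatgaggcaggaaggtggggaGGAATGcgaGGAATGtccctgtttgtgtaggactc

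Of 31 tested matrix genes 9 rose and 11 fell (median -0.26), beside 22.9% and 21.7% of all genes, and the list showed no common direction. The fibrillar collagen genes COL1A1 and COL3A1 went from 154, 152 and 141 to 2.89, 5.63 and 4.28 CPM and from 27.1, 17.4 and 30.4 to 0, 0.225 and 2.26 CPM. COL2A1, a fibrillar collagen that neuroepithelium and cartilage make, rose from 13.8, 12.7 and 12.4 to 201, 224 and 206 CPM. Basement membrane collagens went both ways, with COL4A1 lower (2.55-fold) and COL4A5 and COL4A6 higher (4.30-fold and 4.74-fold). Laminin chain LAMA1 rose 2.42-fold and LAMA5 fell 1.84-fold.

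Of the lists of other cell types that could be in the cultures, the mesenchyme list fell along with the contractile genes. Of 10 tested mesenchyme markers 6 fell and none rose (median -2.18), and the list sum was between 881 and 1013 CPM in hESC and between 330 and 368 CPM at Day 5, with THY1, which hESC make, at a mean of 463 ± 67.9 CPM in hESC. The collagen gene COL1A2 fell from 273, 259 and 246 to 46.1, 49.8 and 54.3 CPM, and COL1A1 and COL3A1, given above, are on this list too. The mesenchyme transcription factor TWIST1 fell from 22.4, 28.1 and 24.2 to 2.17, 1.80 and 3.16 CPM. PRRX1, another such factor, was not called, at 2.86, 2.67 and 1.24 CPM in hESC, and the matrix genes LUM and DCN had 0 counts and 1, 0 and 0 counts there. The part of mesenchyme cells in the fall of the contractile genes was not tested. Of 16 neural crest markers 4 rose and 5 fell (median 0.44), shares near those of all genes. PAX3 and PAX7, of dorsal neural tube and crest, reached 22.4, 14.2 and 29.5 CPM and 10.6, 6.99 and 12 CPM from 2 counts and no count in hESC. FOXD3, of crest and of pluripotent cells, fell from 104, 96.2 and 116 to 12.8, 4.96 and 9.92 CPM, and SOX10, the defining factor of migrating crest, was not called, at 0.476, 6.01 and 3.10 CPM against 8.44, 10.1 and 10.8 CPM, though it was called as higher without the filter on low counts and with only the 6 libraries fitted. Of 6 tested endoderm, liver and yolk sac markers 3 fell and 1 rose, with fitted log2 fold changes from -7.01 to 3.93. Of all tested genes 21.7% fell and 22.9% rose. The marker that rose passed the test against 2-fold, as did 1 of the 3 that fell. AFP, of yolk sac and fetal liver, fell from 50, 32.7 and 54 to 0.482, 0.451 and 0 CPM. Members not tested had few counts. FOXA1 had 0, 0 and 0 counts in hESC and 8, 10 and 16 at Day 5, APOB 1, 0 and 1 against 10, 10 and 6. APOA2 had 0 counts in all 6 libraries. SOX17 is given above, and the Day 5 libraries held more counts in total. The surface ectoderm list held 3 that rose and 3 that fell of 7, and the trophectoderm and amnion list 1 and 3 of 5. Over all tested genes 22.9% rose and 21.7% fell. TFAP2A, which belongs to both and to neural crest, reached 3.62, 4.51 and 10.1 CPM from no count. Keratins KRT5 and KRT14 and TP63, which define surface epithelium, had 0 counts in all 6 libraries, as had CGA and ELF5 of trophoblast. Other untested members of these lists had few counts and went both ways. GRHL3 had 1, 1 and 0 counts in hESC and 5, 7 and 10 at Day 5, DLX3 0, 1 and 2 against 7, 2 and 13, and CDX2 0, 0 and 0 against 3, 7 and 4. KRT17 had 4, 8 and 8 counts in hESC and HLA-G 8, 1 and 5, with 0 at Day 5 for both.

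**Figure D4:**
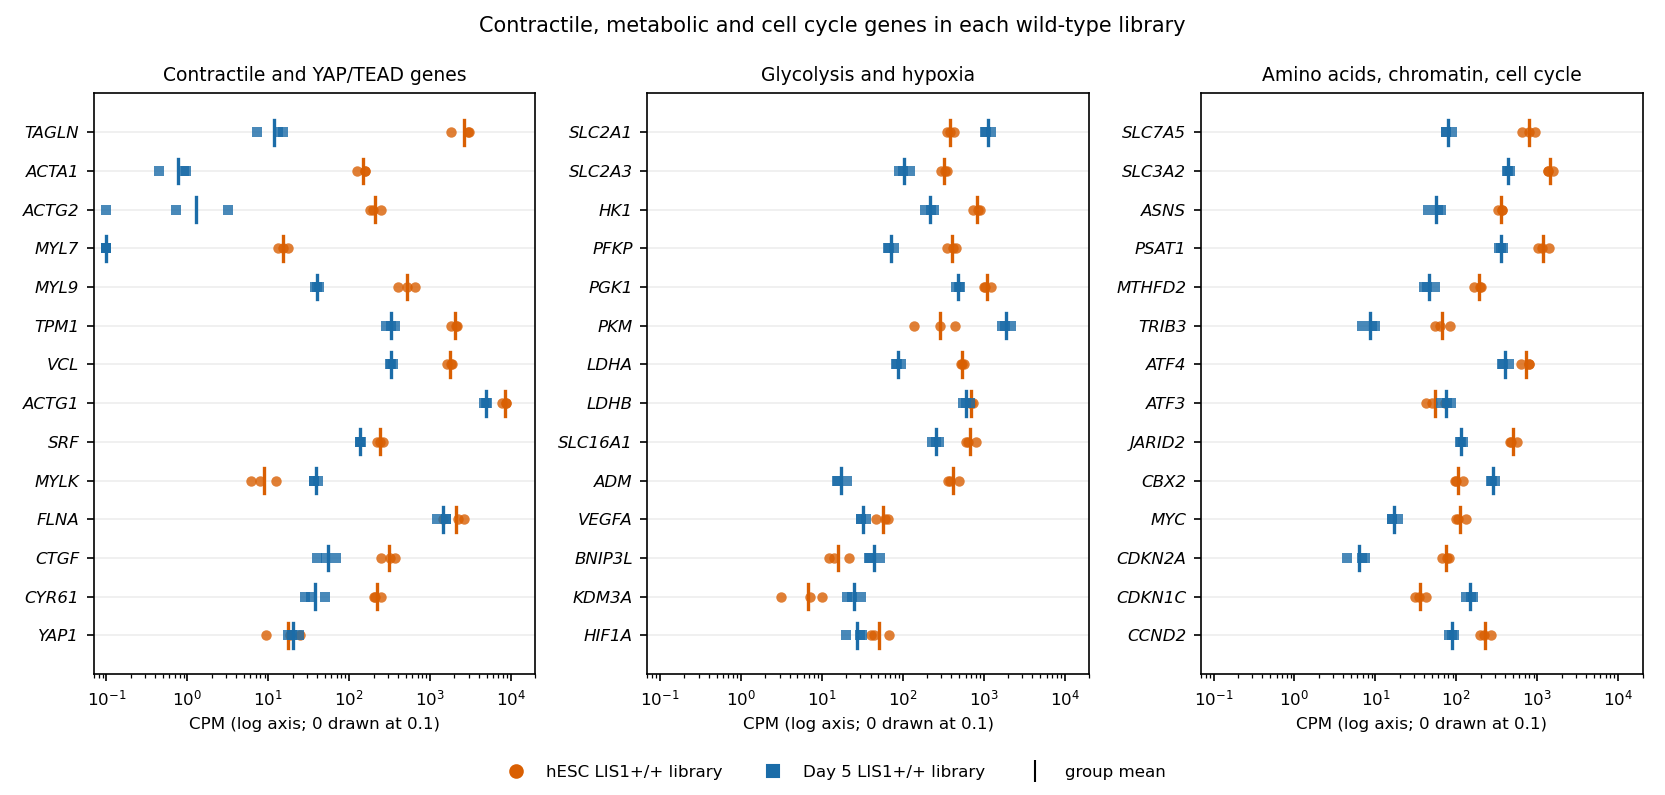
Level in CPM (horizontal log axis, 0 drawn at 0.1) of contractile, metabolic, chromatin and cell cycle genes in the 3 hESC libraries (orange circles) and the 3 Day 5 libraries (blue squares) of LIS1+/+, with a bar at each group mean. TAGLN, ACTA1 and ACTG2 show the widest gaps, MYLK, SLC2A1, PKM, CBX2 and CDKN1C lie higher at Day 5, and FLNA, YAP1 and LDHB overlap.

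Glycolytic genes did not move together: of 22 tested members 4 rose and 11 fell (median -0.51), beside 22.9% and 21.7% of all tested genes. The glucose transporter SLC2A1 rose from 355, 379 and 425 to 1238, 1079 and 1047 CPM and SLC2A3 fell from 330.0, 354 and 294 to 90.2, 100.3 and 124 CPM. Hexokinase HK1 went from 859, 748 and 909 to 221, 190.4 and 242 CPM and the phosphofructokinase PFKP from 355, 416 and 455 to 65.6, 78.6 and 68.6 CPM, both lower. Lactate dehydrogenase LDHA went from 533, 523 and 567 to 94.3, 82.9 and 85 CPM, while LDHB was not called, at 742, 702 and 669 against 558, 680.1 and 599 CPM. The lactate and pyruvate carrier SLC16A1 fell 2.68-fold. PKM, pyruvate kinase, rose from 139, 446 and 289 CPM, with a wide spread in hESC, to 2150.3, 1843 and 1685 CPM (6.53-fold, adjusted p = 1.29e-04). Several of these enzymes have pseudogene copies.

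Hypoxia genes were called at shares near those of all genes (22.9% higher and 21.7% lower), with 4 higher and 3 lower of 13 (median -0.40). ADM, a vasodilator peptide induced by low oxygen, fell from 384, 363 and 500.3 to 15.9, 15.3 and 20.7 CPM and VEGFA from 46.7, 60.8 and 65.2 to 30.4, 35.4 and 30.2 CPM. The mitophagy receptor BNIP3L rose from 12.4, 14 and 21.7 to 37.9, 39.9 and 53 CPM and the histone demethylase KDM3A from 7.14, 10 and 3.10 to 23.4, 20.7 and 30.2 CPM. Cholesterol synthesis, also near those shares, held 4 that rose and 6 that fell of 23, with a median of -0.02. The reductase TM7SF2 stood apart, with 148, 130.3 and 148 CPM in hESC and 411, 386 and 389 CPM at Day 5.

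Serine, one-carbon and amino acid stress genes fell in 19 of 23 tested members and none rose (median -1.45). This list holds targets of ATF4, the factor that answers amino acid shortage, and enzymes that make serine and one-carbon units for nucleotides. The list sum went from between 8786 and 9092 CPM per hESC library to between 3667 and 3918 CPM at Day 5. Both chains of a large neutral amino acid transporter fell, SLC7A5 from 949, 792 and 648 to 75.3, 87.4 and 74 CPM and SLC3A2 from 1369, 1552 and 1346 to 436, 422 and 457 CPM. Asparagine synthetase ASNS went from 328, 372 and 364 to 59.3, 65.6 and 44.4 CPM and TRIB3, a pseudokinase induced by ATF4, from 62.9, 54.8 and 83.8 to 6.75, 9.92 and 9.02 CPM. The serine pathway enzyme PSAT1 fell 3.33-fold and the mitochondrial folate enzyme MTHFD2 4.10-fold. ATF4 itself fell from 781, 792 and 630.0 to 376, 445 and 366 CPM. ATF3 and DDIT3, which belong to the same response, were not called, at 49.5, 42.1 and 73.2 against 76.2, 64 and 86.1 CPM and 24.8, 18 and 27.3 against 13.7, 18.9 and 14.9 CPM. DDIT3 was called as lower with the DESeq2 test, with the GC trend removed and without replicate 2 of hESC or of Day 5, and ATF3 as higher with only the 6 libraries fitted and without hESC replicate 3.

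The amino acid response element, searched as TGATGNAA on both strands, was in 5 of 21 windows of this list (23.8%) and in 3.62% of all windows; this motif was chosen after the values were seen. Members with a match were ASNS, CHAC1, MTHFD1L and SLC3A2, which fell, and ATF3, which was not called. Windows are shown for ASNS and for CHAC1, a glutathione-degrading enzyme that fell 6.82-fold, with the match in capitals; in CHAC1 it is read on the other strand.
ASNS (chr7:97872449-97872496, minus strand): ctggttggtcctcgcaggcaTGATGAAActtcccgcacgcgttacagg
CHAC1 (chr15:40953242-40953289, plus strand): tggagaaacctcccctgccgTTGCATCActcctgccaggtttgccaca

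Genes of DNA methylation and chromatin complexes were called at shares near the 44.6% of all genes. Of 13 tested DNA methylation genes 4 rose and 3 fell (median -0.21). The maintenance methyltransferase DNMT1 was not called, at 316, 308 and 371 CPM against 313, 359 and 328 CPM, and its guide UHRF1 rose from 25.7, 18.7 and 29.8 to 56.2, 43.5 and 50.5 CPM, while the de novo enzyme DNMT3A fell 1.52-fold. Of 21 members of chromatin complexes 7 rose and 3 fell (median 0.38). JARID2, a subunit that recruits Polycomb complex PRC2 in stem cells, fell from 570.5, 469.6 and 466 to 111, 115 and 120.2 CPM. CBX2, a chromodomain subunit of PRC1, rose from 100, 121 and 95.6 to 267, 279.9 and 304 CPM. The catalytic subunits EZH2 and SMARCA4 were not called.

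Cell cycle genes were called about as often as genes in general. DNA replication genes had 6 that rose and 5 that fell of 30 (median -0.03) and mitosis genes 8 and 5 of 30 (median 0.20), against 22.9% and 21.7% of all genes. Among regulators of G1, where 6 rose and 5 fell of 21 (median 0.09), inhibitors went both ways. CDKN2A, which encodes p16 and p14ARF, went from 76.2, 80.2 and 65.8 to 6.75, 7.44 and 4.51 CPM, and CDKN1C, which encodes p57, from 30.5, 42.7 and 34.8 to 159.7, 131 and 154 CPM. CDKN1B, p27, rose 1.85-fold. MYC fell from 99.5, 133 and 106 to 19.3, 16.2 and 16 CPM and cyclin CCND2 from 222, 197 and 268 to 92.6, 87.7 and 81.9 CPM.

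Some of the largest changes lay outside the lists. NOS2, the inducible nitric oxide synthase, went from 1.90, 6.68 and 2.48 CPM in hESC to 1104, 843 and 1159.8 CPM at Day 5, a rise of 293-fold (log2 8.19 ± 0.37, adjusted p = 4.33e-14). Growth factor MDK, midkine, rose from 496, 436 and 306 to 2509.5, 2213 and 2479 CPM and the glypican GPC3 from 414, 339 and 422 to 1900.5, 1528 and 1609 CPM. DMBX1, a homeobox gene of midbrain and diencephalon, and the matrix protease ADAMTS18 had no count in hESC and reached 23.9, 25.7 and 12.2 CPM and 19.1, 14.2 and 31.6 CPM. The tubulin TUBA1A, which has close relatives, rose from 1542, 1451 and 1773 to 4153, 3216 and 3729 CPM. COBL, an actin nucleator, went from 73.3, 52.1 and 63.3 to 0, 0.225 and 0.677 CPM and the kinase NRK from 21.4, 18.7 and 18 to 0, 0.225 and 0 CPM. UCHL1, a ubiquitin hydrolase abundant in neurons, fell from 2956, 2530.2 and 3155 to 1357, 1551 and 1347 CPM. Ribosomal protein genes, many with processed copies, had 5 that rose and 23 that fell of 77 tested (median -0.20), beside 22.9% and 21.7% of all tested genes.

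The same step was measured in independent libraries of LIS1+/-, in which hESC and Day 5 carried the same 2 pool numbers. PAFAH1B1, the gene altered in LIS1+/-, had a mean (± SD, n = 3 for means here and below) of 89.3 ± 19.9 CPM in hESC and 139 ± 11.7 CPM at Day 5 of LIS1+/+ and of 56.2 ± 4.93 and 92.6 ± 10.6 CPM in LIS1+/-. There 5341 of 12215 genes (43.7%) were called, and 3883 were called in the same direction in both genotypes, 71.2% of the LIS1+/+ calls and 72.7% of the LIS1+/- calls. Of the 1722 genes beyond 2-fold in LIS1+/+ 1598 were called the same way in LIS1+/-, and 8 genes were called in opposite directions. Of the 380 called list members 312 were called the same way in LIS1+/- and 2 the opposite way. These were COL11A1, a fibrillar collagen, and the receptor NOTCH3. In LIS1+/+ the call was lost for COL11A1 without hESC replicate 1 or 3 or Day 5 replicate 3 (adjusted p up to 0.0870) and for NOTCH3 without hESC replicate 2 or 3 or Day 5 replicate 1 (up to 0.124). The size of the step differed between the genotypes for 70 genes (0.573% of those tested, edgeR interaction test, adjusted p under 0.05), with 60 lower and 10 higher in LIS1+/-, while 1467 had an unadjusted p under 0.05. This count depended on single libraries. It was 31 without hESC LIS1+/+ replicate 3 and 45 without replicate 2, 36 without hESC LIS1+/- replicate 3 and 41 without replicate 2, and 39 and 38 without Day 5 LIS1+/+ replicate 1 and 2. Without the filter on low counts it was 281.

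Several of the 70 were stem cell genes with a larger fall in LIS1+/-. POU5F1 had a mean of 34.2 ± 2.78 CPM at Day 5 in LIS1+/+ and 7.25 ± 1.37 CPM in LIS1+/-, from 517 ± 52.6 and 456 ± 54.3 CPM in hESC. The difference of the step was -2.06 ± 0.24 (interaction test, adjusted p = 2.96e-05), where ± is the SE, as for the differences below. PODXL stood at 248 ± 32.7 and 60.9 ± 1.96 CPM at Day 5 (-2.21 ± 0.22, adjusted p = 2.32e-06). NODAL stood at 11.1 ± 0.378 and 0.902 ± 0.914 CPM (-2.89 ± 0.67, adjusted p = 0.0413). The streak gene MIXL1 rose in LIS1+/+ and was measured at 23.7 ± 16.5 against 0.661 ± 0.259 CPM at Day 5 (-4.83 ± 1.08, adjusted p = 0.0329). Among neural genes, HES4 rose less in LIS1+/- (-2.77 ± 0.49, adjusted p = 0.00973), starting from 72.7 ± 19.7 CPM against 13.7 ± 7.38 CPM in hESC, and GBX2 rose in LIS1+/+ but had means of 8.48 ± 1.26 and 9.43 ± 3.01 CPM in LIS1+/- (-3.07 ± 0.57, adjusted p = 0.00720). The WNT inhibitor SFRP2 rose more in LIS1+/-, to 5251 ± 422 CPM against 2410.0 ± 116 CPM (1.12 ± 0.24, adjusted p = 0.0240).

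**Figure D5:**
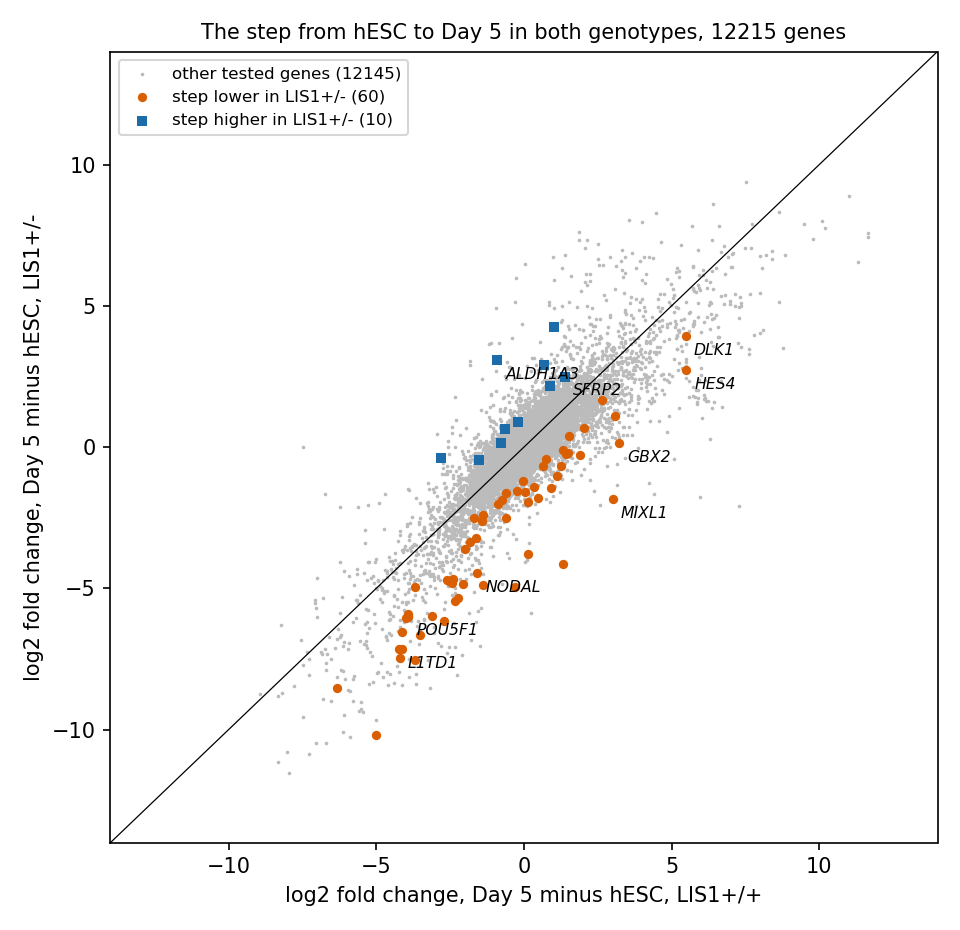
Fitted log2 fold change from hESC to Day 5 in LIS1+/+ (horizontal axis) and LIS1+/- (vertical axis) for 12215 genes, with the line of equality. Orange circles mark the 60 genes with a lower step in LIS1+/- and blue squares the 10 with a higher one; most genes lie along the line, and POU5F1, L1TD1, NODAL, MIXL1, GBX2 and HES4 are among those below it.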

How the data were processed

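RNA of 18 samples of WIBR3 hESC and organoids was made into bulk MARS-seq libraries, per the labels' protocols. The submitters' processing notes name cutadapt, STAR and DESeq2 and the builds GRCh37 and hg38, with no versions; the strand used and any collapsing of molecular identifiers are not given in the sources used here. Raw counts per gene deposited by the authors, 1 table per library with 26485 genes, were used as they stand, and summary rows naming no gene were left out of library sizes.

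Counts were fitted with edgeR 4.0.16 (R 4.3.3) over all 18 libraries in 6 groups, with filterByExpr, TMM scaling and a robust quasi-likelihood test; p-values were adjusted by Benjamini-Hochberg over 12215 genes. Change beyond 2-fold was tested with glmTreat. The fit was tested on simulated data with the same spread for every gene, which checks the code and cannot speak for the calls made here. Folds against 0 counts use a floor of 3 counts over the group, and ratios with 1 to 3 counts have exact 95% counting intervals; PCR copies make both cover counting error only. DESeq2 1.42.0, size factors, filters, thinning to 1602532 counts, single libraries left out and GC of the last 500 bases of transcripts (GENCODE models, value for 95.4% of tested genes) gave alternatives.

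Lists and members were chosen with earlier results of these data known. Named genes are the 12 largest rises and falls that reach 10 CPM in one stage, the 12 largest gains and losses in CPM, up to 8 called genes without overlap per list by adjusted p, defining regulators, and list members not called; other list members, named for their role, were chosen after their values were seen. Some genes are not reported here.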

Additional observations from a re-analysis of the deposited data

Results flagged for a closer look

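The step from hESC to Day 5 differed between LIS1+/+ and LIS1+/- for 26 of the genes followed by name, by edgeR's interaction test with an adjusted p under 0.05 over all tested genes. Values are the LIS1+/- step minus the LIS1+/+ step on the log2 scale, from 3 libraries in each of 4 groups, and no explanation was tested.

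Among stem cell and Nodal genes, all of which fell in LIS1+/+ except MIXL1, the difference was -2.06 for POU5F1, -3.13 for ZSCAN10, -2.12 for VRTN, -1.98 for CD9, -2.21 for PODXL and -2.91 for L1TD1. It was -3.01 for the noncoding RNA ESRG, -3.86 for SCGB3A2, -2.19 for TDGF1, -3.11 for FOXH1, -2.89 for NODAL and -4.83 for MIXL1. ESRG had a mean of 97.2 ± 23.6 CPM at Day 5 in LIS1+/+ and 9.62 ± 1.59 CPM in LIS1+/- (SD, n = 3).

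Among genes that rose in LIS1+/+, the difference was -1.54 for DLK1, -2.77 for HES4, -3.07 for GBX2, -1.38 for CDKN1C, -1.31 for NOTCH3, 1.12 for SFRP2 and -1.73 for the integrin ITGA5. ITGA5 had means of 46 ± 11 CPM in hESC and 131 ± 24.8 CPM at Day 5 in LIS1+/+, against 71.7 ± 19.1 and 61.6 ± 11.9 CPM in LIS1+/-. ALDH1A3, a retinoic acid synthesising enzyme that was not called in LIS1+/+, had a difference of 3.98, with 2.15 ± 0.701 CPM at Day 5 in LIS1+/+ and 17.1 ± 3.00 CPM in LIS1+/-.

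Among other genes that fell in LIS1+/+, the difference was -1.25 for MYL9, -1.14 for the filamin FLNC, -1.58 for SLC2A3, -1.60 for the arginine pathway enzyme ASS1, -0.82 for SLC3A2 and -1.01 for FZD7. MYL9 and FLNC were higher in LIS1+/- hESC (909 ± 38.2 and 293 ± 15.9 CPM) than in LIS1+/+ hESC (523 ± 122 and 145 ± 13.4 CPM), while their Day 5 means were 29.2 ± 7.31 and 79.2 ± 14.7 CPM against 40.1 ± 2.07 and 86.6 ± 10.7 CPM.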

How the results depend on the processing

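The count of 5453 called genes lay between 5419 and 5760 with DESeq2 size factors, no filter on low counts, the DESeq2 test, a fit of only the 6 libraries, a replicate block, or the GC trend removed (chosen after seeing the data), and was 4866 with libraries thinned to equal depth. Leaving out a library gave 4623 to 4902. The count beyond 2-fold lay between 1177 (DESeq2 test) and 1857, and between 1494 and 1593 without 1 library. The LIS1+/- count lay between 4459 and 5565, and between 4561 and 5098 without 1 library. The 70 genes whose step differed became 281 without the filter, 140 with the DESeq2 test and 117 with only the 12 libraries compared, and ranged from 31 to 79 without 1 library; the cause was not tested.

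The replicate numbers did not pair the libraries: deviations of same-numbered hESC and Day 5 libraries correlated at -0.0374, 0.0179 and 0.0617. With the replicate number as a block, 5419, 1692, 5298 and 77 genes were called in the comparisons in the order above.

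DNMT1, not called, had a log2 fold change of -0.026 with DESeq2 size factors and with the DESeq2 test, of -0.064 with the GC trend removed, and of -0.065 to 0.096 without 1 library. YAP1, not called, ranged from -0.11 to 0.53 without 1 library. Of 375 genes followed by name, between 13 and 20 lost their call without 1 library and at most 9 under any other alternative. Only 355 of them had a value in the fit of the 6 libraries, 365 after thinning and 374 with the DESeq2 test. Genes without a value there are not counted as lost. A call was gained by up to 9 (only the 6 libraries fitted), by 7 without the filter, 5 with the GC trend removed and up to 5 without 1 library, among them EZH2, PTBP2, SMARCA4, NEUROG2 and ZIC1, given above as not called. The depth allows a CPM of up to 0.576 in hESC and 0.230 at Day 5 behind a count of 0, counting error only.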

Other observations

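Some of the widest changes were in genes with little known role in this tissue. LRRC10B, a leucine-rich repeat protein, and ARHGAP15, a regulator of Rac, had no count in the 3 LIS1+/+ hESC libraries and reached 24.6, 14 and 17.6 CPM and 18.6, 22.3 and 15.8 CPM at Day 5, at least 32.3-fold and 32.8-fold higher. Both were also found in LIS1+/- at Day 5, with means of 22.9 ± 4.14 and 14.9 ± 1.80 CPM (SD, n = 3). The noncoding RNA LINC01405 went from 170.5, 122 and 145 to 0.482, 0 and 1.13 CPM in LIS1+/+, 250.1-fold lower, and had means of 143 ± 33.8 CPM in hESC and 0 ± 0 CPM at Day 5 in LIS1+/-. GNAS, which encodes a G protein subunit, rose from 2658, 2827 and 3105 to 4204, 3707 and 3999.9 CPM.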
